A study of Homo sapiens with 12 samples.

Results

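The genes described here are 9 that encode enzymes or enzyme subunits of the tricarboxylic acid (TCA) cycle, or, for IDH1, the cytosolic counterpart of one of them. They are CS, IDH1, IDH2, IDH3A, OGDH, DLST, SUCLG1, FH and MDH2. The members were chosen by gene symbol, with no measured value in the rule, from the 58735 genes of the count table, and all 9 were among the 16891 genes with enough counts to be tested. RNA-seq was used to measure their mRNA in a human ovarian cancer line, ES2, made into FDX2-iKO cells by putting an HA-tagged, editing-resistant FDX2 under a TetON promoter and then knocking out the endogenous gene. Cells of all 4 conditions carry the knockout and the transgene, so that doxycycline (Doxy) keeps FDX2 on and its absence turns FDX2 off. The conditions were "20% O2 + Doxy" and "20% O2 wo Doxy", each cultured for 6 days, and "3% O2 + Doxy" and "3% O2 wo Doxy", each cultured for 4 days at 20% O2 and then 3 days at 3% O2. There were 3 libraries per condition and 12 in all, described as biological replicates of a clonally derived line. Time in culture (6 against 7 days) cannot be told apart from oxygen in any comparison between the oxygen levels. FDX2 loss below stands for cells without Doxy against cells with it. No cells without the knockout were among the samples, so an effect of Doxy itself cannot be told apart from FDX2 loss.

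The TCA cycle runs in the mitochondrial matrix, where it oxidises acetyl groups to CO2 and passes the electrons to NADH and FADH2 for respiration, and it also supplies citrate, 2-oxoglutarate and oxaloacetate for lipid and amino acid synthesis. FDX2 is the mitochondrial ferredoxin that delivers electrons for building iron-sulfur (Fe-S) clusters. Protein lipoylation has been described as dependent on its paralog FDX1. In the cycle, the SDHB subunit of succinate dehydrogenase holds Fe-S clusters and DLST carries the lipoyl group of the 2-oxoglutarate dehydrogenase complex, whereas CS, the isocitrate dehydrogenases, SUCLG1, FH and MDH2 hold no Fe-S cluster in human cells. An mRNA level says nothing of cluster or lipoyl occupancy.

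Library totals lay between 24958386 and 34313637 counts, and the 9 genes together took 0.107% to 0.115% of each library. The reads assigned to FDX2 itself were few in every library (2, 5 and 6 counts at 20% O2 with Doxy, 4, 9 and 13 without, 2, 4 and 12 at 3% O2 with Doxy, 5, 7 and 7 without), so FDX2 counts did not separate the Doxy groups and could not check the labels. In the annotation, 70.9% of the exonic bases of FDX2 are shared with AC011511.1 and AC011511.4 on the same strand. How reads in shared bases were counted is not stated, so these counts may understate FDX2 mRNA. CA9, a classical hypoxia-induced gene, was at 2 to 9 counts per library at 20% O2 and at 1145 to 2699 at 3% O2. The keratin KRT18 and the mesenchymal filament VIM were abundant (387 to 566 and 2124 to 3629 CPM, counts scaled to library size), whereas the epithelial markers EPCAM and CDH1 and the clear cell marker NAPSA were at or near 0. Other markers of these classes, among them KRT8, PAX8, WT1 and CDH2, are not reported here. The genes named therefore do not settle the identity of the cells. By a chi-square of counts over genes, 3 libraries stood apart from their replicates: 20% O2 + Doxy replicate 1, 3% O2 + Doxy replicate 3 and 3% O2 wo Doxy replicate 1. Libraries also differed in a trend on the GC content of transcripts. The members that this touches are given with and without it, and so are called genes of other lists whose log2 fold change it moved by over 1.5 times.

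The enzymes were all moderately to highly expressed, and their order was led by the last reactions of the cycle. In reads per kilobase of exon scaled to library size (RPKM), FH, which hydrates fumarate to malate, was at 58.9 ± 4.11 (SD, n = 3) at 20% O2 with Doxy, and MDH2, which oxidises malate to oxaloacetate, was at 51.4 ± 4.22, with libraries that overlapped. CS, which condenses acetyl-CoA with oxaloacetate, came next at 44.1 ± 0.539 RPKM. DLST was at 30.7 ± 1.86 and OGDH, the decarboxylating subunit of the same complex, at 24.7 ± 2.75. SUCLG1 (18.9 ± 0.298) and IDH1 (18.5 ± 1.18) overlapped, followed by IDH3A (15.8 ± 0.271) and IDH2 (11.1 ± 1.49). Without Doxy at 20% O2, FH stood below MDH2 with no overlap (44.8 ± 2.06 against 51.5 ± 1.90 RPKM), and the libraries kept this order without overlap at 3% O2 without Doxy (43.4 ± 1.38 against 52.8 ± 3.44). With Doxy at 3% O2, FH and MDH2 overlapped again (52.4 ± 1.67 and 50.6 ± 6.17). OGDH closed up on DLST at 3% O2, where their libraries overlapped both with Doxy (29.2 ± 2.81 and 30.4 ± 0.150) and without (29.8 ± 1.97 and 29.8 ± 1.15). Exon lengths behind these values are of all annotated exons of a gene, so levels compared between genes depend on which isoforms the cells use.

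**Figure D1:**
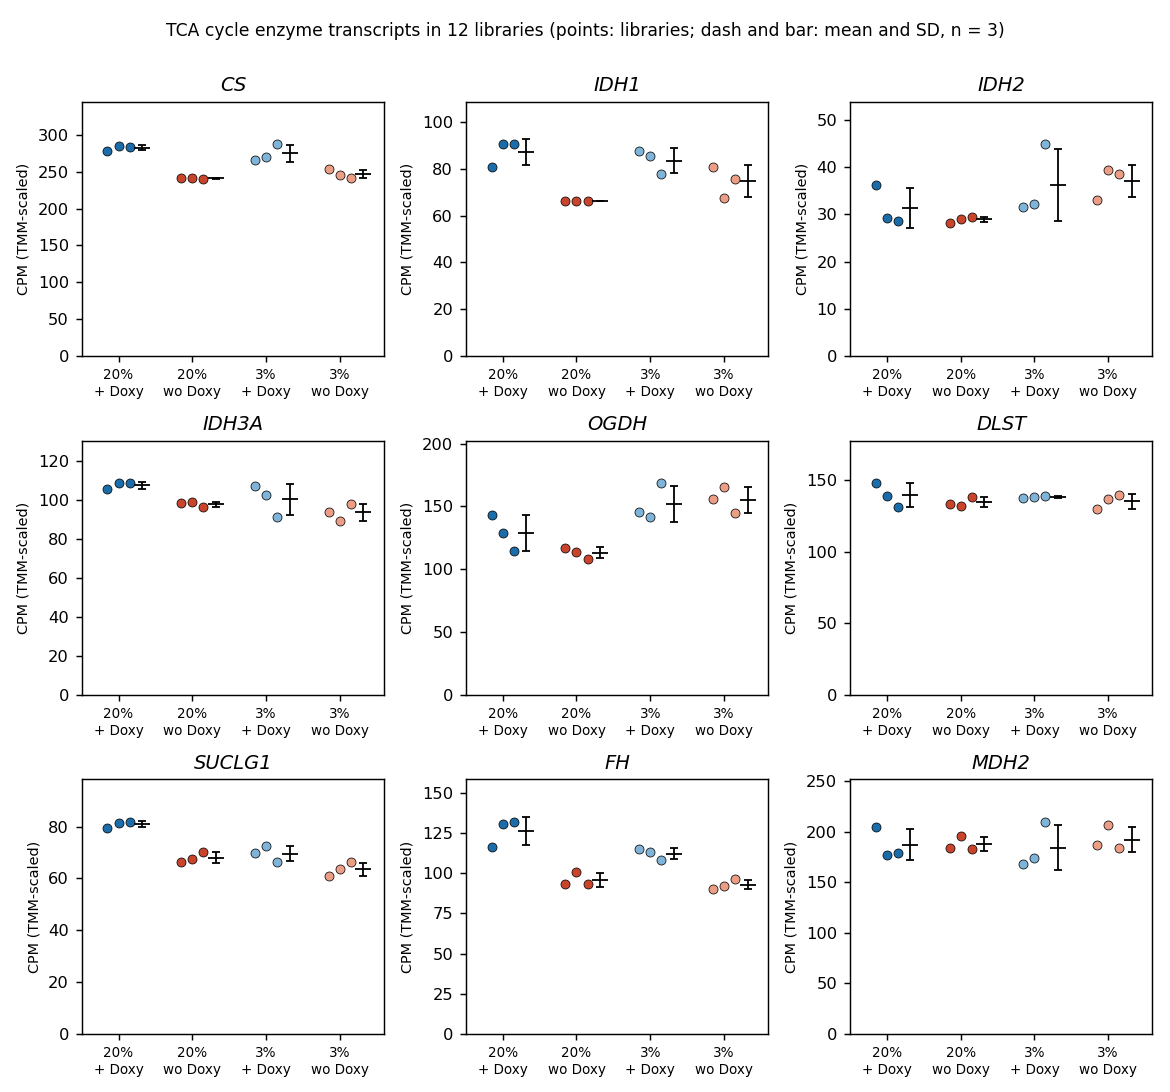
Level of each of the 9 TCA cycle enzyme transcripts in the 12 libraries, in CPM after TMM scaling on an axis from 0, by condition (points, libraries; dash and bar, mean and SD, n = 3). CS, IDH1, IDH3A, SUCLG1 and FH sit lower without Doxy than with Doxy at 20% O2 with no overlap. IDH2, OGDH and MDH2 have their highest Doxy-treated library in 20% O2 + Doxy replicate 1 and 3% O2 + Doxy replicate 3.

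With FDX2 loss at 20% O2, the mRNA of FH, IDH1, SUCLG1 and CS was called lower, and none of the 9 was called higher. The falls were small, between 14.6% and 24.2%, and in bulk RNA less mRNA per cell cannot be told apart from fewer expressing cells. Of all tested genes, 17.7% fell and 17.6% rose in this comparison (Benjamini-Hochberg adjusted p under 0.05 by the quasi-likelihood test of edgeR), so a changed gene was not rare. The median log2 fold change of the 9 members was −0.19, against 0.01 over all tested genes. Replicates did not overlap for 5 of the 9 members, each lower without Doxy, where 52.3% of tested genes did not overlap in one direction or the other. The sum of the 9 members, which is weighted towards the abundant CS and MDH2, lay between 1151 and 1193 CPM with Doxy and between 1026 and 1045 CPM without.

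FH had the smallest adjusted p of the 9. Its level was 116, 131 and 132 CPM in the 3 libraries with Doxy and 93.7, 101 and 93.1 CPM in those without, so that the highest library without Doxy was below the lowest with it. The fall was 24.0%, with a log2 fold change of −0.40 ± 0.06 (SE) and an adjusted p of 0.000527. IDH1, the cytosolic and peroxisomal NADP-dependent isocitrate dehydrogenase, was at 81.0, 90.6 and 90.8 CPM with Doxy and at 66.2, 66.4 and 66.3 CPM without. The 3 libraries without Doxy were nearly identical for IDH1, and the gene fell by 24.2% (log2 fold change −0.40 ± 0.07, adjusted p = 0.00184).

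SUCLG1, the alpha subunit shared by both forms of succinyl-CoA ligase, was at 79.5, 81.6 and 81.8 CPM with Doxy and at 66.3, 67.6 and 70.2 CPM without. It fell by 16.0% (log2 fold change −0.25 ± 0.05, adjusted p = 0.00299). CS was at 279, 285 and 284 CPM with Doxy and at 242, 241 and 241 CPM without. CS fell by 14.6% (log2 fold change −0.23 ± 0.04, adjusted p = 0.00189), and its libraries differed within each condition by less than between them. Each of the 4 calls was kept in 18 of 19 other analyses, which include refits without each library of the 2 conditions in turn. The exception was the requirement of a 2-fold change, which none of the 9 met in any comparison.

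The promoters of these 4 genes, which fell together, are shown from RefSeq (GRCh38.p14, 250 bases before to 50 after the start) in transcript sense, with each CCAAT box, in either orientation, in capitals. The CCAAT box is the binding site of the factor NF-Y. Windows are on the minus strand for the 4 genes: chr1:241519706-241520005 for FH, chr2:208254409-208254708 for IDH1, chr2:84459231-84459530 for SUCLG1 and chr12:56300281-56300580 for CS.
FH: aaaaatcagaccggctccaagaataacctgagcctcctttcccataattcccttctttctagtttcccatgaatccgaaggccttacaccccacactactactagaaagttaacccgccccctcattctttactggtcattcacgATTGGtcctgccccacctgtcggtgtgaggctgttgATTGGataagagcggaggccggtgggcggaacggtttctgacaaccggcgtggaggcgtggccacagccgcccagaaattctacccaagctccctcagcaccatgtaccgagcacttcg
IDH1: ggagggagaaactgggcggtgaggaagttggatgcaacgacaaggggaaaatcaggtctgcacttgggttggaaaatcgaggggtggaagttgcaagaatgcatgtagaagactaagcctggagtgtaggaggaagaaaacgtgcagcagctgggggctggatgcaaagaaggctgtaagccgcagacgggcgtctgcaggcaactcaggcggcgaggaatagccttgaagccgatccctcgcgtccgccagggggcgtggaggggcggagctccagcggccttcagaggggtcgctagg
SUCLG1: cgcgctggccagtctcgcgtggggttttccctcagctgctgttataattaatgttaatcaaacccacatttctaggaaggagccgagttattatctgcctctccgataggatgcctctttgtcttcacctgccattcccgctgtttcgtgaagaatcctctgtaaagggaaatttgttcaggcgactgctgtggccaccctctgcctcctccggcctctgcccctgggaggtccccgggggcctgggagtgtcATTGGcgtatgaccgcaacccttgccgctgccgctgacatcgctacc
CS: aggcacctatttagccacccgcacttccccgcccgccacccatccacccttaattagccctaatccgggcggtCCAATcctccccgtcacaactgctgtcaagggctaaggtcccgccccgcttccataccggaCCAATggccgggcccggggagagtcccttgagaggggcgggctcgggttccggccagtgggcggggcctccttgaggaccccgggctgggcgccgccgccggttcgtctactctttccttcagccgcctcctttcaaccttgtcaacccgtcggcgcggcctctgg

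The FH promoter holds 2 CCAAT boxes, beginning 105 and 69 bases before the start. The CS promoter holds 2 as well, 177 and 116 bases before the start, SUCLG1 holds 1 within the first bases of the transcript and IDH1 holds none. Of 35116 RefSeq promoter windows, 34.6% hold at least 1 CCAAT. The windows of IDH2, IDH3A, DLST and MDH2 hold no CCAAT, and OGDH has no window in the table used. Whether a CCAAT box goes with the falls was not tested. Other letters searched on both strands were CGCATGCG (NRF1 core) and TCAAGGTCA (an ERR element), which are in 2.02% and 0.353% of windows and in none of the 8 members with one. The hypoxia response element core was searched as ACGTG (21.4% of windows; IDH1) and GCGTG (36.5% of windows; IDH1, IDH2, IDH3A, SUCLG1 and FH). No searched motif contains another, and matches are descriptions of letters. The starts of CS, IDH1, IDH3A and DLST coincide with a start annotated by GENCODE, and those of the other 4 genes with a window lie 6 to 74 bases from one. The distance was 74 bases for IDH2. The starts of IDH1, IDH2, IDH3A and SUCLG1 lie 11616, 1883, 17864 and 765 bases from the annotated 5′ end of the gene. Which start these cells use was not tested.

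The other 5 members were not called at 20% O2. IDH3A, the catalytic alpha subunit of the NAD-dependent isocitrate dehydrogenase, was at 106, 109 and 109 CPM with Doxy and at 98.4, 99.0 and 96.5 CPM without. These libraries did not overlap, and the log2 fold change was −0.14 ± 0.06 (adjusted p = 0.108). In the annotation, 38.9% of the exonic bases of IDH3A lie under exons of ACSBG1 and CIB2 on the opposite strand, and whether counting used strand is not stated, so its level may include reads of those genes. OGDH was at 143, 129 and 115 CPM with Doxy and at 117, 113 and 108 CPM without, with overlap (−0.19 ± 0.09, adjusted p = 0.133). Without 20% O2 + Doxy replicate 3, OGDH was called lower (−0.27, adjusted p = 0.0421).

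IDH2, the mitochondrial NADP-dependent isocitrate dehydrogenase, was the least expressed member, at 36.2, 29.2 and 28.7 CPM with Doxy and 28.2, 29.1 and 29.4 CPM without. Its estimate of −0.12 had a 95% interval from −0.42 to 0.18, so that a fall as large as that of FH or IDH1 was not excluded by these libraries. DLST, at 148, 139 and 131 CPM with Doxy and 133, 132 and 139 CPM without, had an interval from −0.17 to 0.06. MDH2, at 205, 177 and 179 CPM with Doxy and 184, 196 and 183 CPM without, had an interval from −0.19 to 0.20. The intervals of DLST and MDH2 are narrow enough to leave out changes as large as those of FH, IDH1, SUCLG1 and CS.

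At 3% O2, FH was again lower without Doxy and was the only one of the 9 called. In this comparison 3.11% of tested genes fell and 4.2% rose. FH was at 115, 113 and 108 CPM with Doxy and at 90.5, 92.0 and 96.2 CPM without, with no overlap. The fall was 17.2% (log2 fold change −0.27 ± 0.06, adjusted p = 0.0222). The call was kept in 9 of 19 other analyses. It was lost without replicate 1 or 2 of either 3% O2 condition (adjusted p from 0.0672 to 0.0895), with a replicate block (0.0516) and with upper-quartile scaling (0.0521). When the 6 libraries at 3% O2 were fitted alone it was lost too (0.0767, and 0.284 with a replicate block). An adjusted p under 0.01 and a 2-fold minimum were not met either. The estimate stayed between −0.32 and −0.24 throughout.

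CS and SUCLG1 were also lower in each library without Doxy at 3% O2, without passing the test. CS was at 267, 271 and 288 CPM with Doxy and 254, 246 and 242 CPM without (−0.15 ± 0.04, adjusted p = 0.0555), and it was called in 6 of 19 other analyses. SUCLG1 was at 69.8, 72.3 and 66.5 CPM with Doxy and 61.0, 63.5 and 66.2 CPM without (−0.13 ± 0.05, adjusted p = 0.155). These 2 genes and FH were the 3 of 9 without overlap, where 24.6% of tested genes did not overlap. IDH1 was at 87.6, 85.7 and 77.8 CPM with Doxy and 81.0, 67.5 and 75.7 CPM without, with overlap (−0.16 ± 0.07, adjusted p = 0.223).

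The remaining members at 3% O2 had log2 fold changes between −0.10 (IDH3A) and 0.06 (MDH2). The median of the 9 was −0.10, against 0.04 over all tested genes. Without the 3 libraries that stood apart, 5 members were called lower (FH, IDH1, IDH3A, CS and SUCLG1) and IDH2 was called higher (0.25, adjusted p = 0.00464). Leaving out the most distant library of a condition also shrinks the estimated spread, and 5554 genes of the whole table were then called in place of 1235, so these calls are set against a larger background. With all 12 libraries and the GC trend removed, IDH2 was at 0.0052 (adjusted p = 0.965) and was not called.

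The response to FDX2 loss was not shown to differ between the oxygen levels for any of the 9 members. The difference (response at 3% minus response at 20% O2) passed the test for 0 of 9 in edgeR and 0 of 9 by DESeq2's Wald test, with IDH1 the only member at an unadjusted p under 0.05 in edgeR. Over all tested genes it was negative and called in 4.08% and positive and called in 3.21% in edgeR. DESeq2's Wald test called it for 1932 genes of the whole table, in place of 1231. The estimates of the 9 were all above 0, from 0.02 for DLST to 0.24 for IDH1, with a median of 0.12 against 0.05 over all tested genes. For FH the difference was 0.12 with an interval from −0.07 to 0.31, for CS 0.07 (−0.06 to 0.21) and for SUCLG1 0.12 (−0.04 to 0.28). The signs did not hold throughout: DLST, IDH2, IDH3A and MDH2 fell below 0 in at least 1 other analysis. IDH1 was called (0.28, adjusted p = 0.0118) once the GC trend was removed, and IDH2 (0.29, adjusted p = 0.0147) without the 3 libraries that stood apart. Over the whole table, 3180 and 4655 genes were called at these settings in place of 1231. With all 12 libraries and the GC trend removed, the difference for IDH2 was −0.038 (adjusted p = 0.819).

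**Figure D2:**
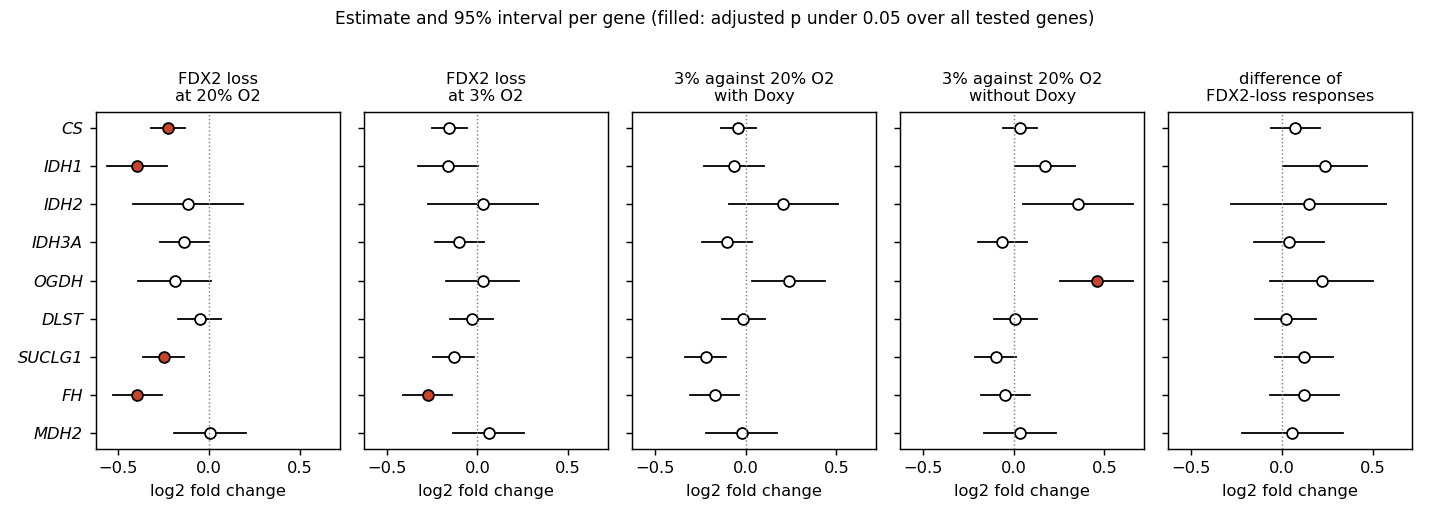
Log2 fold change of each member in the 5 comparisons, with 95% intervals from the edgeR model (horizontal axis, log2 fold change; rows, genes; filled points, adjusted p under 0.05 over all tested genes). Filled points are FH, IDH1, SUCLG1 and CS for FDX2 loss at 20% O2, FH at 3% O2 and OGDH for low oxygen without Doxy.

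With Doxy, none of the 9 members passed the test between 3% and 20% O2 in edgeR. By DESeq2's Wald test 1 did (SUCLG1, adjusted p = 0.0016), and 3 members had an unadjusted p under 0.05 in edgeR (SUCLG1, FH and OGDH). In this comparison 0.385% of all tested genes fell and 1.63% rose in edgeR. DESeq2's Wald test called 620 genes of the whole table, in place of 341. SUCLG1 and FH were the 2 members whose libraries did not overlap, where 15.4% of tested genes did not overlap. SUCLG1 was 14.1% lower at 3% O2 (69.6 ± 2.95 against 81.0 ± 1.28 CPM, adjusted p = 0.0561) and was called in 4 of 19 other analyses. FH was 11.1% lower (112 ± 3.57 against 126 ± 8.80 CPM, adjusted p = 0.24). The median of the 9 was −0.04, against −0.0045 over all tested genes.

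Without Doxy, OGDH was higher at 3% than at 20% O2 and was the only member called. OGDH was at 156, 165 and 145 CPM at 3% O2 and at 117, 113 and 108 CPM at 20% O2, so that the groups did not overlap. The rise was 37.3% (log2 fold change 0.46 ± 0.09, adjusted p = 0.00475), where 13.9% of tested genes rose and 11.9% fell. OGDH kept its call in 19 of 20 other analyses. With Doxy, OGDH was at 145, 142 and 169 CPM at 3% O2, against 143, 129 and 115 at 20% O2, with overlap (0.24 ± 0.09, adjusted p = 0.277). Whether the oxygen response of OGDH differed with Doxy is the same contrast as the difference above (0.22, interval −0.06 to 0.50, adjusted p = 0.338) and was not shown.

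IDH2, IDH1 and CS also had no overlap between 3% and 20% O2 without Doxy, each higher at 3%, and SUCLG1 had none, lower at 3%. With OGDH these are 5 of 9 members, where 49.4% of tested genes did not overlap. IDH2 was at 33.1, 39.4 and 38.5 CPM at 3% O2 against 28.2, 29.1 and 29.4 at 20% O2 (0.36 ± 0.14, adjusted p = 0.0794). IDH2 was called when the 6 libraries without Doxy were fitted alone, both with the replicate block (0.34, adjusted p = 0.013) and without it (0.34, adjusted p = 0.0113). Whole-table counts in these fits are not given here, so the IDH2 calls stand without a background. IDH1 was 12.8% higher (0.17 ± 0.08, adjusted p = 0.113) and was called without 3% O2 wo Doxy replicate 2 (0.24, adjusted p = 0.048). CS differed by 2.45% (adjusted p = 0.571).

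GC content separated the members in a way that bears on these values. OGDH (56.0% GC) and IDH2 (57.3%), with MDH2 (54.1%), are the GC-rich members, IDH3A (43.5%), IDH1 (43.7%), SUCLG1 (43.9%) and FH (45.3%) are the GC-poor ones, and CS (50.2%) and DLST (51.5%) lie between. The median of tested genes was 48.4%. The difference of a library's trend between 57% and 44% GC ranged from −0.21 to 0.28 on the log2 scale, and was highest in 3% O2 + Doxy replicate 3 (0.28), 3% O2 wo Doxy replicate 2 (0.26) and 20% O2 + Doxy replicate 1 (0.25). These are the libraries in which IDH2 was highest within its condition. It was negative in each of the 3 libraries at 20% O2 without Doxy and positive in each of the 3 at 3% O2 without Doxy.

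With this trend removed, the 4 falls at 20% O2 remained close to their values (FH −0.39, IDH1 −0.40, SUCLG1 −0.25, CS −0.19, each called), and IDH3A was called as well (−0.14, adjusted p = 0.0147). OGDH at 20% O2 moved from −0.19 to −0.05 and IDH2 from −0.12 to 0.04. Between the oxygen levels without Doxy, OGDH moved from 0.46 to 0.28 and kept its call (adjusted p = 0.000425), IDH2 moved from 0.36 to 0.14, and IDH1 was called higher at 3% O2 (0.24, adjusted p = 0.00179). With Doxy, OGDH was then called higher (0.21, adjusted p = 0.00964) and SUCLG1 lower at 3% O2 (−0.19, adjusted p = 0.0107). In that comparison 1313 genes of the whole table were called with the trend removed, in place of 341. The added calls of OGDH and SUCLG1 are thus set against a larger background. Whole-table counts at this setting are not given here for FDX2 loss at 20% O2 or for oxygen without Doxy. Whether the GC trend arose in library preparation was not tested.

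**Figure D3:**
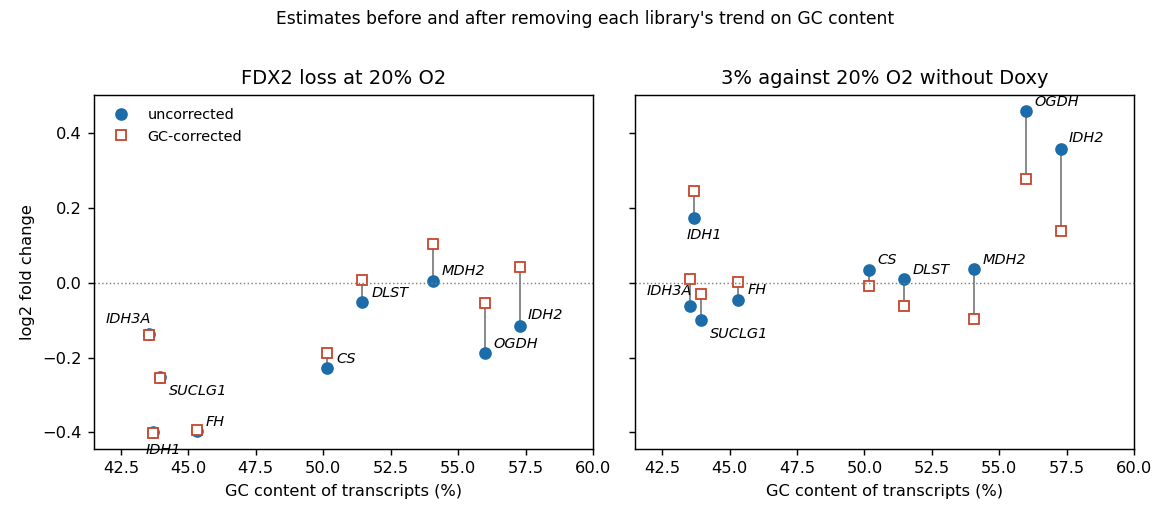
Log2 fold change of the 9 members against the GC content of their transcripts (%), for FDX2 loss at 20% O2 and for 3% against 20% O2 without Doxy (circles, uncorrected; squares, after removal of each library's GC trend). FH, IDH1 and SUCLG1 scarcely move at left, whereas OGDH goes from 0.46 to 0.28 and IDH2 from 0.36 to 0.14 at right.

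Of 11 other TCA cycle subunits, 2 fell and 2 rose with FDX2 loss at 20% O2, where 17.7% of all tested genes fell and 17.6% rose, and the median of the 11 was −0.00020. The 4 calls became 5 without 20% O2 + Doxy replicate 1, 2 without 20% O2 wo Doxy replicate 3 and 3 without any of the other 4 libraries, and 7 with the GC trend removed. Refits that left out 1 library called 4423 to 5575 genes of the whole table, in place of 5961. The share of all tested genes called at 20% O2 with the GC trend removed is not given here, so the 7 stands without a background. Around SUCLG1, the succinyl-CoA ligase has an ATP-forming beta subunit, SUCLA2, which fell (−0.20 ± 0.06, adjusted p = 0.0233; called in 9 of 19 other analyses), and a GTP-forming beta subunit, SUCLG2, which rose (0.24 ± 0.06, adjusted p = 0.00841; 15 of 19). Among the refits, SUCLA2 was called only without 20% O2 + Doxy replicate 1 or 20% O2 wo Doxy replicate 2, and SUCLG2 lost its call without 20% O2 wo Doxy replicate 2 (0.23, adjusted p = 0.0548) or 3 (0.19, adjusted p = 0.0929). SUCLG2 was at 120, 135 and 139 CPM with Doxy and 152, 153 and 160 CPM without at 20% O2. At 3% O2, SUCLG2 was at 127, 120 and 122 CPM with Doxy and 153, 147 and 149 CPM without, and it rose there too (0.28 ± 0.06, adjusted p = 0.0154; 13 of 19). The SUCLG1 and SUCLG2 libraries therefore separated in opposite directions on FDX2 loss at both oxygen levels, the call for SUCLG1 being made at 20% O2 only.

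In succinate dehydrogenase, whose product fumarate is the substrate of FH, SDHA, the flavoprotein subunit, fell at 20% O2, and SDHC, a membrane anchor, rose. SDHA was at 268, 246 and 230 CPM with Doxy and 189, 187 and 178 CPM without (−0.42 ± 0.07, adjusted p = 0.00118). SDHC was at 151, 160 and 167 CPM with Doxy and 205, 203 and 201 CPM without (0.35 ± 0.06, adjusted p = 0.000728). The Fe-S subunit SDHB (0.08 ± 0.06, adjusted p = 0.336) and the anchor SDHD (0.06 ± 0.09, adjusted p = 0.676) were not called.

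At 3% O2, none of these 4 genes was called on FDX2 loss, with values of −0.04 for SDHA, −0.02 for SDHB, 0.13 for SDHC and −0.05 for SDHD. The difference of the responses passed the test for SDHA (0.39 ± 0.10, adjusted p = 0.0485) but in 9 of 23 other analyses only. Its values for SDHB (−0.09), SDHC (−0.22) and SDHD (−0.11) did not pass. Without Doxy, SDHA was higher at 3% than at 20% O2 (0.43, adjusted p = 0.00226), whereas SDHB (−0.27, adjusted p = 0.00618) and SDHC (−0.28, adjusted p = 0.00514) were lower. In this comparison SDHD was at −0.25 (adjusted p = 0.0746). With Doxy, 0 of the 11 subunits were called in edgeR (1 at an unadjusted p under 0.05) and 1 by DESeq2's Wald test, with SDHB at −0.18, SDHD at −0.14, SDHC at −0.06 and SDHA at 0.04. Of all tested genes, 0.385% were lower and 1.63% higher at 3% O2 with Doxy in edgeR, so 0 of 11 is no result about these subunits. DESeq2's Wald test called 620 genes of the whole table there, in place of 341.

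Of the pyruvate dehydrogenase complex, which supplies CS with acetyl-CoA, and its kinases and phosphatases, 1 gene of 11 fell and 1 rose at 20% O2, where 17.7% of all tested genes fell and 17.6% rose, and 1 to 3 were called when 1 library was left out. Whole-table calls in those refits numbered 4423 to 5575, in place of 5961. PDHB, the E1 beta subunit, fell (−0.25 ± 0.06, adjusted p = 0.011; adjusted p = 0.0633 without 20% O2 wo Doxy replicate 1), and PDK4, a kinase that switches the complex off, rose from 0.374 ± 0.123 to 1.05 ± 0.0633 CPM (1.49 ± 0.34, adjusted p = 0.00599). This PDK4 rise rests on low counts, 8 to 13 per library with Doxy and 31 to 34 without, so its size is loosely set. PDK1, the hypoxia-responsive kinase, rose at 3% O2 both with Doxy (1.14 ± 0.07, adjusted p = 5.54e-06) and without (0.70 ± 0.07, adjusted p = 7.29e-05). PDK1 was at 74.2, 81.4 and 74.1 CPM with Doxy at 3% O2 and at 54.3, 57.3 and 62.3 CPM without, and it fell with FDX2 loss there (−0.40 ± 0.07, adjusted p = 0.00605). The difference of the responses was −0.44 for PDK1 (adjusted p = 0.0208; called in 16 of 23 other analyses). PDK3 rose at 3% O2 with Doxy (0.66, adjusted p = 0.0167; 10 of 19). PDK4 was again higher without Doxy at 3% O2 (1.48, adjusted p = 0.0453; 7 of 16), on 2 to 7 counts per library with Doxy and 8 to 16 without. At counts this low the size is loosely set, and the estimate ran from 1.17 to 1.85 when 1 library was left out, the call being kept in 2 of 6 such refits. PDK4 was lower at 3% than at 20% O2 without Doxy (−1.22, adjusted p = 0.0226; 13 of 19).

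Of 12 enzymes that feed the cycle or act beside it, 4 fell and 3 rose at 20% O2, where 17.7% of all tested genes fell and 17.6% rose, with a median of −0.06. With 1 library left out, 6 or 7 were called, beside 4423 to 5575 genes of the whole table in place of 5961. The largest fall was in pyruvate carboxylase, PC (−0.75 ± 0.16, adjusted p = 0.00378), which makes oxaloacetate for CS, followed by GOT2, the mitochondrial aspartate aminotransferase (−0.45 ± 0.06, adjusted p = 0.000127), the malic enzyme ME2 (−0.39 ± 0.08, adjusted p = 0.00441) and ACLY, which cleaves exported citrate (−0.30 ± 0.09, adjusted p = 0.0272). ME3 (0.65 ± 0.17, adjusted p = 0.0115), the mitochondrial PEP carboxykinase PCK2 (0.60 ± 0.12, adjusted p = 0.00326) and the cytosolic aspartate aminotransferase GOT1 (0.33 ± 0.05, adjusted p = 0.000383) rose. At 3% O2, 0 of the 12 were called on FDX2 loss in edgeR (3 at an unadjusted p under 0.05) and 0 by DESeq2's Wald test. There 3.11% of all tested genes fell and 4.2% rose in edgeR, shares at which 0 of 12 is no result about these enzymes. DESeq2's Wald test called 1925 genes of the whole table there, in place of 1235. The difference of the responses was called for GOT1 (−0.43, adjusted p = 0.00433; 22 of 23 other analyses), GOT2 (0.36, adjusted p = 0.023; 12 of 23) and PC (0.87, adjusted p = 0.0412; 10 of 23), which was 0.55 with the GC trend removed.

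Without Doxy, 3 of these 12 genes were higher and 3 lower at 3% than at 20% O2, where 13.9% of all tested genes were higher and 11.9% lower. Higher were PC (0.60, adjusted p = 0.0188), GOT2 (0.32, adjusted p = 0.00258) and ACLY (0.30, adjusted p = 0.0357). Lower were PCK2 (−0.54, adjusted p = 0.0101), the cytosolic malic enzyme ME1 (−0.53, adjusted p = 0.000341) and GOT1 (−0.45, adjusted p = 0.000122). GOT2, ME1 and GOT1 were called in 19 of 20 other analyses, PCK2 in 18, PC in 15 and ACLY in 11. ACLY lost its call without any 1 of the 6 libraries (adjusted p from 0.0509 to 0.118), and PC lost it without 20% O2 wo Doxy replicate 2 (0.56) or 3 (0.59) or 3% O2 wo Doxy replicate 2 (0.51). With the GC trend removed, PC went to 0.29, ACLY to 0.19 and PCK2 to −0.82, each still called. This comparison and FDX2 loss at 20% O2 share the 20% O2 libraries without Doxy.

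Of the 7 mitochondrial carriers of cycle intermediates and pyruvate, 5 fell and 0 rose at 20% O2, where 17.7% of all tested genes fell and 17.6% rose, and the median of −0.31 was the lowest of the 5 lists. The count was 2 without 20% O2 + Doxy replicate 1 or 20% O2 wo Doxy replicate 1 or 3, 3 without 20% O2 wo Doxy replicate 2, and 4 without 20% O2 + Doxy replicate 2 or 3. Over the whole table, these refits called 4423 to 5575 genes in place of 5961. SLC25A10, the dicarboxylate carrier, was at 12.5, 11.1 and 8.91 CPM with Doxy and 5.68, 5.44 and 5.43 CPM without (−0.97 ± 0.13, adjusted p = 0.000197), and 46.6% of its exonic bases are shared with AC139530.2 on the same strand. SLC25A13, an aspartate-glutamate carrier, was at 51.7, 57.3 and 59.8 CPM with Doxy and 36.6, 34.5 and 35.6 CPM without (−0.66 ± 0.06, adjusted p = 1.54e-05). The citrate carrier SLC25A1 fell by 0.54 on the log2 scale (adjusted p = 0.0456; 11 of 19 other analyses), SLC25A11 by 0.31 (adjusted p = 0.0394; 10 of 19) and SLC25A12 by 0.17 (adjusted p = 0.0428; 6 of 19). SLC25A1 and SLC25A11 were called in 2 of 6 refits each, those without 20% O2 + Doxy replicate 2 or 3, and stood at −0.31 and −0.20 without 20% O2 + Doxy replicate 1. With the GC trend removed they were at −0.17 (adjusted p = 0.0112) and −0.11 (adjusted p = 0.0374). The pyruvate carrier subunits MPC1 and MPC2 were not called.

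At 3% O2, SLC25A13 was the 1 carrier called on FDX2 loss (−0.25, adjusted p = 0.0308; 8 of 19), where 3.11% of all tested genes fell and 4.2% rose. The difference of the responses was called for SLC25A10 (0.93, adjusted p = 0.0126; 20 of 23; 0.48 with the GC trend removed) and SLC25A13 (0.41, adjusted p = 0.0187; 14 of 23). Without Doxy, SLC25A1 (0.67, adjusted p = 0.0256), SLC25A10 (0.60, adjusted p = 0.00774) and SLC25A13 (0.37, adjusted p = 0.00177) were higher at 3% than at 20% O2. They were called in 13, 16 and 19 of 20 other analyses. With the GC trend removed, SLC25A1 went to 0.22 and SLC25A10 to 0.18, where SLC25A10 was no longer called (adjusted p = 0.221). SLC25A1 was called in 2 of 6 refits, and lost its call without any 20% O2 wo Doxy library or without 3% O2 wo Doxy replicate 2 (0.57 to 0.67). With Doxy, 0 of the 7 were called between the oxygen levels in edgeR (4 at an unadjusted p under 0.05) and 1 by DESeq2's Wald test. Of all tested genes, 0.385% were lower and 1.63% higher there in edgeR, so 0 of 7 is no result about the carriers. DESeq2's Wald test called 620 genes of the whole table there, in place of 341.

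**Figure D4:**
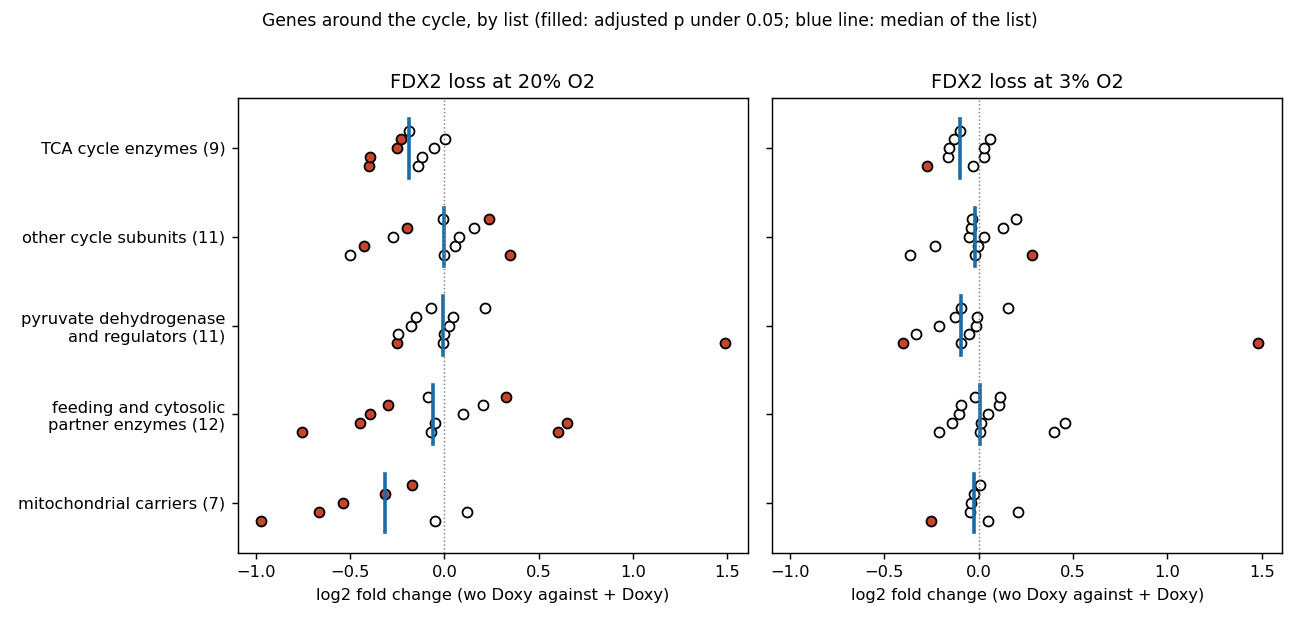
Log2 fold change without against with Doxy of the genes of 5 lists around the cycle, at 20% O2 (left) and 3% O2 (right) (points, genes; filled, adjusted p under 0.05; blue line, median of the list). Filled points at left number 4 of 9 TCA cycle enzymes and 5 of 7 carriers on the falling side, and 2 of 11 other cycle subunits on each side.

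Processed pseudogenes of CS, DLST and FH took few reads (at most 6 counts in any library), and how multiply aligned reads were treated is not given. The members lie, on GRCh38 with GENCODE release 29, at chr12:56271699-56300392 (CS), chr2:208236227-208266074 (IDH1), chr15:90083045-90102504 (IDH2), chr15:78131498-78171949 (IDH3A), chr7:44606572-44709066 (OGDH), chr14:74881891-74903745 (DLST), chr2:84423523-84460045 (SUCLG1), chr1:241497603-241519761 (FH) and chr7:76048051-76067508 (MDH2). CS shares 3.44% of its exonic bases with AC073896.1 on the same strand and IDH1 1.99% with IDH1-AS1 on the opposite one, and DLST, FH, IDH2, MDH2, OGDH and SUCLG1 share none.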

How the data were processed

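Poly(A) RNA of the 12 libraries was sequenced in paired-end mode on a DNBSEQ-T7 instrument, and the authors used STAR for alignment to GRCh38 and featureCounts for assignment to genes. What they deposited is the raw count of each of 58735 gene identifiers in each library, neither normalized nor pooled. Versions, annotation, strand setting and the treatment of multiply aligned reads are not given in the sources used here, and per the labels 1 FASTQ file each of 20% O2 + Doxy replicates 1 and 2 was lost after counting. All identifiers match GENCODE release 29, from which positions, exon overlaps, exon lengths and GC content were taken.

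Software was edgeR 4.0.16 with DESeq2 1.42.0 for alternatives, run in R 4.3.3. After filterByExpr (minimum count 10, minimum total 15), TMM scaling and a quasi-likelihood fit of 4 condition means to all 12 libraries (8 residual degrees of freedom), 16891 genes were tested, and a gene was called at a Benjamini-Hochberg adjusted p under 0.05. Log2 fold changes are given with the SE and 95% interval of the model, and levels in CPM or RPKM with the SD (n = 3). The common biological coefficient of variation was 16.3%. With 3 replicates per condition, an exact permutation test of 1 gene could not go below a p of 0.10, so p-values come from the model across genes. GC content was known for 99.97% of tested genes, and its trend was removed by a lowess offset per library (span 0.3, genes over 2 log2 CPM). The fit and the GC offset were tested on simulated data.

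The members, the 4 further gene lists and the tests were chosen with earlier results of these data known. All 9 members are named, and of the other lists SDHA to SDHD, the genes called in the difference, and up to 3 called genes per list and comparison with the largest change. SUCLA2, ME2, ACLY, SLC25A11 and SLC25A12 were added after their values were seen, to name each called gene of a counted group. Some genes of these lists are not reported here and are in no count or median of them. Alternatives were DESeq2 size factors, upper-quartile scaling, no filter, a floor of 10 counts per library, a replicate block, the compared libraries alone, GC correction, leaving out each library, DESeq2's Wald test, an adjusted p under 0.01 and a 2-fold minimum. Same-numbered libraries without Doxy at 20% and 3% O2 deviated together (correlations 0.226 to 0.51), so the numbers were taken to pair those libraries only. The margin was small, since different-numbered libraries of these conditions lay between −0.499 and 0.222. Between the conditions with Doxy, different-numbered libraries reached 0.692.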

Additional observations from a re-analysis of the deposited data

Results flagged for a closer look

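The change on FDX2 loss passed a test of difference between 20% and 3% O2 for 0 of the 9 cycle enzymes and for 7 of the 41 genes of the lists around them, where 4.08% of all tested genes passed with a negative and 3.21% with a positive difference, shares at which 0 of 9 is no result about the enzymes (edgeR interaction test, response at 3% minus response at 20% O2, log2 scale). The carriers SLC25A10 (0.93; −0.97 at 20% and −0.04 at 3% O2) and SLC25A13 (0.41; −0.66 and −0.25), the complex II subunit SDHA (0.39; −0.42 and −0.04), the mitochondrial aminotransferase GOT2 (0.36; −0.45 and −0.09) and pyruvate carboxylase PC (0.87; −0.75 and 0.12) had the lower value at 20% O2. The cytosolic aminotransferase GOT1 (−0.43; 0.33 and −0.11) and the kinase PDK1 (−0.44; 0.04 and −0.40) had the lower value at 3% O2. GOT1 and SLC25A10 were called in each of the 12 refits that left out 1 library, and the others in 2 (PC) to 7 (PDK1 and SLC25A13) of them. With 3 libraries per condition, single libraries were not tested for standing apart in 1 gene.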

How the results depend on the processing

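The falls of FH, IDH1, SUCLG1 and CS at 20% O2 kept their direction in 19 of 19 other analyses and their call in 18, and the rise of OGDH at 3% O2 without Doxy kept its call in 19 of 20. Results of the members were most open to change at 3% O2 and between the oxygen levels, where differences were small beside the replicate spread: of 900 member values over the alternatives, 783 stayed on the same side of the threshold with the same sign, 32 became called, 15 lost their call and 70 changed sign, none of them a called value. Uncalled estimates near 0 carry no direction. Replicates were 3 per condition, so changes under about the sizes given by the intervals were not detectable. The replicate numbers gave same-number correlations of deviations between 0.226 and 0.51 for the conditions without Doxy at 20% and 3% O2, and were mixed in sign or negative for the other pairs of conditions, where they were taken as shared numbers only. Different-numbered libraries of the conditions without Doxy lay between −0.499 and 0.222, so the pairing rests on a small margin. With the replicate block the members called for oxygen without Doxy numbered 1 as before. For the other results below the cause of the change was not tested, except that fewer libraries, fewer genes or a stricter threshold were part of the alternative.

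Counts of all genes called are printed in this paragraph for only some settings and comparisons. A member count with none beside it stands without a background. Whether such member calls only followed a change over all genes cannot be told from it. With DESeq2 size factors, the members called numbered 2 for FDX2 loss at 3% O2, while the sign turned in MDH2 (−0.0053) for FDX2 loss at 20% O2 and in DLST (−0.0091) for oxygen without Doxy. With upper-quartile scaling, the members called numbered 0 for FDX2 loss at 3% O2, while the sign turned in DLST (0.015) for FDX2 loss at 20% O2, in DLST (0.0067) for oxygen with Doxy, in CS (−0.012), DLST (−0.038) and MDH2 (−0.012) for oxygen without Doxy and in IDH3A (−0.027), DLST (−0.045) and MDH2 (−0.0072) for the difference. With no filter, all genes called numbered 678 for FDX2 loss at 3% O2 and 672 for the difference, while the sign turned in MDH2 (−0.032) for FDX2 loss at 20% O2, in IDH2 (−0.0018) and OGDH (−0.0035) for FDX2 loss at 3% O2 and in DLST (−0.0036) for oxygen without Doxy. With at least 10 counts required in every library, the members called numbered 2 for FDX2 loss at 3% O2, while the sign turned in DLST (−0.017) for oxygen without Doxy and in DLST (−0.0035) for the difference. With a replicate block, the members called numbered 0 for FDX2 loss at 3% O2, and all genes called numbered 676 for FDX2 loss at 3% O2, 218 for oxygen with Doxy and 615 for the difference. With the GC trend removed, the members called numbered 2 for FDX2 loss at 3% O2, 2 for oxygen with Doxy, 2 for oxygen without Doxy and 1 for the difference, and all genes called numbered 3308 for FDX2 loss at 3% O2, 1313 for oxygen with Doxy and 3180 for the difference, while the sign turned in IDH2 (0.043) and DLST (0.0057) for FDX2 loss at 20% O2, in SDHB (0.0067) for FDX2 loss at 3% O2, in CS (−0.0078), IDH3A (0.011), DLST (−0.061), FH (0.0010) and MDH2 (−0.10) for oxygen without Doxy and in IDH2 (−0.038), DLST (−0.034) and MDH2 (−0.047) for the difference. With the GC trend removed and a replicate block, the members called numbered 2 for FDX2 loss at 3% O2, 2 for oxygen with Doxy, 3 for oxygen without Doxy and 1 for the difference, and all genes called numbered 2866 for FDX2 loss at 3% O2, 1016 for oxygen with Doxy and 2730 for the difference, while the sign turned in IDH2 (0.042) and DLST (0.0057) for FDX2 loss at 20% O2, in SDHB (0.0054) for FDX2 loss at 3% O2, in CS (−0.0077), IDH3A (0.012), DLST (−0.061), FH (0.0014) and MDH2 (−0.10) for oxygen without Doxy and in IDH2 (−0.035), DLST (−0.034) and MDH2 (−0.046) for the difference. With the libraries compared fitted alone, the members called numbered 0 for FDX2 loss at 3% O2 and 2 for oxygen without Doxy, and all genes called numbered 218 for FDX2 loss at 3% O2 and 128 for oxygen with Doxy, while the sign turned in DLST (−0.0041) for oxygen without Doxy. With those libraries alone and a replicate block, the members called numbered 0 for FDX2 loss at 3% O2 and 2 for oxygen without Doxy, and all genes called numbered 1 for FDX2 loss at 3% O2 and 12 for oxygen with Doxy, while the sign turned in DLST (−0.0044) for oxygen without Doxy. With those libraries alone, the GC trend removed and a replicate block (chosen after seeing the data), the members called numbered 2 for oxygen without Doxy, while the sign turned in CS (−0.0078), IDH3A (0.014), DLST (−0.060), FH (0.0044) and MDH2 (−0.094) for oxygen without Doxy. Without the 3 libraries that stood apart (chosen after seeing the data), the members called numbered 6 for FDX2 loss at 3% O2, 2 for oxygen with Doxy, 2 for oxygen without Doxy and 1 for the difference, and all genes called numbered 5554 for FDX2 loss at 3% O2, 982 for oxygen with Doxy, 7980 for oxygen without Doxy and 4655 for the difference, while the sign turned in SDHD (−0.072) for FDX2 loss at 20% O2, in DLST (0.017) for oxygen with Doxy and in IDH3A (−0.016) for the difference. At an adjusted p under 0.01, the members called numbered 0 for FDX2 loss at 3% O2, and all genes called numbered 3645 for FDX2 loss at 20% O2, 404 for FDX2 loss at 3% O2, 181 for oxygen with Doxy, 1975 for oxygen without Doxy and 382 for the difference. With a 2-fold minimum, the members called numbered 0 for FDX2 loss at 20% O2, 0 for FDX2 loss at 3% O2 and 0 for oxygen without Doxy, and all genes called numbered 910 for FDX2 loss at 20% O2, 118 for FDX2 loss at 3% O2, 92 for oxygen with Doxy, 451 for oxygen without Doxy and 186 for the difference. By DESeq2's Wald test, the members called numbered 2 for FDX2 loss at 3% O2 and 1 for oxygen with Doxy, and all genes called numbered 1925 for FDX2 loss at 3% O2, 620 for oxygen with Doxy and 1932 for the difference, while the sign turned in MDH2 (−0.0053) for FDX2 loss at 20% O2 and in DLST (−0.0086) for oxygen without Doxy.

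Leaving out each library in turn gave these lowest and highest values. For FDX2 loss at 20% O2 the ranges were MDH2 −0.046 to 0.062 and SDHD −0.050 to 0.13. For FDX2 loss at 3% O2 the ranges were all genes called 581 to 1605, members called 0 to 1, IDH2 −0.062 to 0.22, MDH2 -4.97e-06 to 0.17, OGDH −0.030 to 0.11, SDHA −0.10 to 0.014, SDHB −0.076 to 0.037 and SDHD −0.14 to 0.011. For oxygen with Doxy the ranges were all genes called 190 to 388, DLST −0.056 to 0.022, MDH2 −0.13 to 0.038 and SDHA −0.014 to 0.088. For oxygen without Doxy the ranges were all genes called 2321 to 4200, members called 1 to 2, DLST −0.016 to 0.039 and MDH2 −0.018 to 0.069. For the difference the ranges were all genes called 520 to 2191, DLST −0.027 to 0.068, IDH3A −0.022 to 0.090 and MDH2 −0.014 to 0.17. FH lost its call at 3% O2 in 4 of these, as given above.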
